A study of Mus musculus with 7 samples.

Results

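The 9 genes described here, Calb1, Calb2, Pvalb, S100g, S100b, Pcp4, Hpca, Vsnl1 and Ncald, code for small proteins that bind calcium or calmodulin in neurons, glia or kidney tubule. They were chosen by name: every probe set with 1 of these symbols as its single gene symbol in the platform annotation was taken. That gave 21 probe sets of 50689 in the series, 17 on the sense arrays and 4 among the reverse probe sets. The 4 reverse probe sets belonged to Calb1, S100g and Pcp4 (2), and the other 6 genes had none.

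RNA of whole mouse brain and of whole mouse kidney was hybridised to 7 Affymetrix arrays. The labels give no strain, sex, age or treatment. Brain (8 micrograms of total RNA) was read on the 430A and 430B arrays for sense transcripts and on U74A and U74B for antisense transcripts. Kidney (6.75 micrograms) was read on the 430 2.0 array, which carries the probe sets of both 430 designs, and on U74A and U74B. The reverse probe sets of the U74 arrays lie opposite to the annotated transcript and so read antisense RNA. With 1 array per tissue and design there is no replicate error and no p-value, and how precise a value is depends on that single array. For the sense strand, array type and tissue cannot be told apart. In whole tissue, more cells of a type and more RNA per cell cannot be told apart either.

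Most of these proteins bind calcium through EF-hands, helix-loop-helix folds that hold the ion in the loop. Calbindin D28k (Calb1), calretinin (Calb2) and parvalbumin (Pvalb) act mainly as buffers in neurons and are classic markers of subtypes of inhibitory neurons, and Calb1 and Pvalb are also made in the distal tubule. Calbindin D9k (S100g) carries calcium through epithelial cells, S100b is made by astrocytes and other glia, and hippocalcin (Hpca), visinin-like 1 (Vsnl1) and neurocalcin delta (Ncald) are neuronal calcium sensors that move to membranes on binding calcium. Pcp4 has no EF-hand and binds calmodulin through an IQ motif.

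The promoters of S100g, S100b and Pcp4 are shown because these 3 genes each had a single start in the RefSeq promoter table (GRCm38.p6), and because they hold both tissue directions found below, S100g towards kidney and the other two towards brain. Each stretch runs from 250 bases before to 50 bases after the annotated start, 5′ to 3′ on the gene's strand. Capitals mark the motifs searched on both strands, namely the TATA box with the letters TATAAA, the GC box with the letters GGGCGG and the CCAAT box; no match overlaps another.
S100g, chrX:162964550-162964849, minus strand: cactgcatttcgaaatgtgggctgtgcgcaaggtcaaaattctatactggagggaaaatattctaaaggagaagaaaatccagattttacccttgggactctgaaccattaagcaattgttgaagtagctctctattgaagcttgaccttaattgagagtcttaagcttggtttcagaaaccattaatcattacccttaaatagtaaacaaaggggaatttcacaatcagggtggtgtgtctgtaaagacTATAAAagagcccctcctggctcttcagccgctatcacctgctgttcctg
S100b, chr10:76253586-76253885, plus strand: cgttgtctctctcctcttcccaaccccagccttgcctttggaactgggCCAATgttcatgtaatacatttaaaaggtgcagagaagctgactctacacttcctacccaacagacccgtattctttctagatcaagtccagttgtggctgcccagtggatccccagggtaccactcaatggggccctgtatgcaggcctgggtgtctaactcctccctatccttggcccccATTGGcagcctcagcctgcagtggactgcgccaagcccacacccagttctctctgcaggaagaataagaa
Pcp4, chr16:96467356-96467655, plus strand: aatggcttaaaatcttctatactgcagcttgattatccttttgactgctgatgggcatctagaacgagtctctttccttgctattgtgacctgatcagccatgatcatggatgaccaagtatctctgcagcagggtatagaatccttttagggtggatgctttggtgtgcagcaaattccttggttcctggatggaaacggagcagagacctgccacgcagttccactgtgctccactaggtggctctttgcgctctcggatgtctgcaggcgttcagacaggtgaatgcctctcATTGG

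TATAAA stands at the annotated start in S100g, so transcription may begin downstream of that start, and is absent from the other two windows. A CCAAT box, written ATTGG where it lies on the opposite strand, is found in S100b, 202 and 20 bases before the start, and near the end of the Pcp4 window. Of the 32851 promoters in the table, 13.6% hold the TATA letters, 35.7% the GC box and 37.4% the CCAAT box. No window of the 3 holds the GC box.

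The first comparison asked how the sense transcripts of these genes stand in brain and in kidney. Of the 9 genes, 7 were 2-fold or more higher in brain, S100g was higher in kidney, and Calb1 was within 2-fold. Of all 12933 genes above the floor, 18.1% were called higher in brain and 26.6% in kidney, and with 430B put on the scale of 430A these shares were 26.7% in brain and 15.7% in kidney. For the 9 genes the log2 ratio had a median of 3.35, beside -0.09 over all genes above the floor. For these calls each brain array was centred against the kidney array, and signals under the floor (on the kidney array's scale, 186.4 on 430A and 27.9 on 430B) were raised to it. Each gene is represented by the probe set whose percentile, averaged over the tissues, is highest. Folds on the sense strand are after centring unless another scaling is named. A fold against a tissue below the floor is given as at least N-fold, a bound on the centred scale, and a ratio of the deposited signals is named as such.

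**Figure D1:**
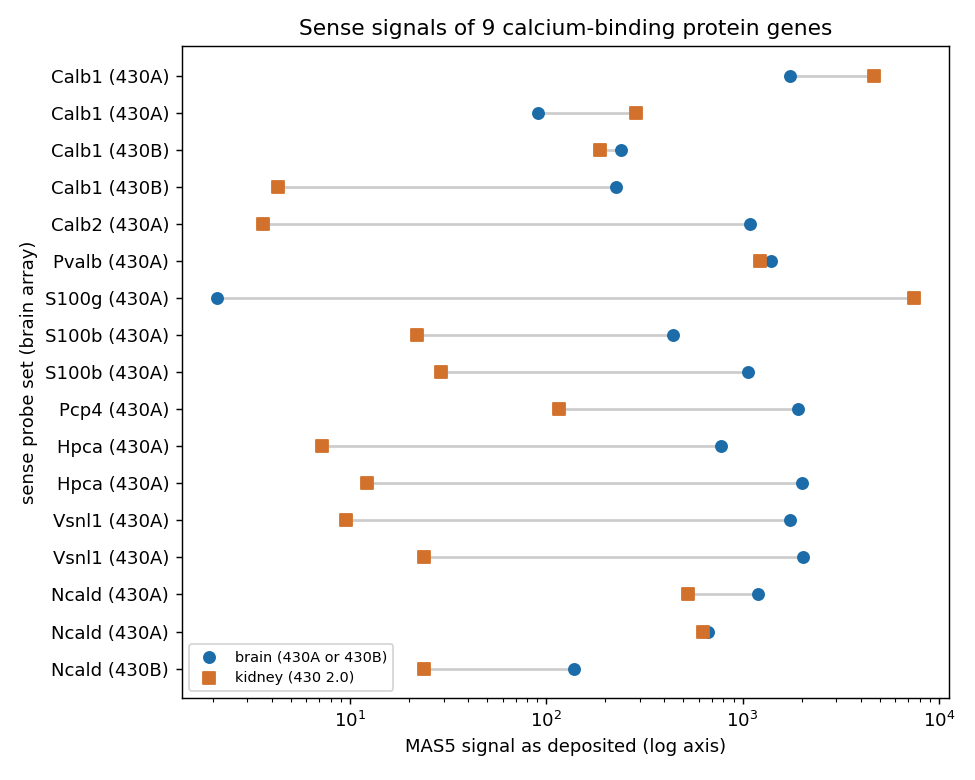
MAS5 signal as deposited (log axis) of the 17 sense probe sets, with brain as circles and kidney as squares joined by a line; the brain array is in brackets. S100g has the widest gap, 2.1 in brain against 7484.1 in kidney, while both tissues lie close together for Pvalb.

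S100g was the one gene of the 9 called higher in kidney. Its probe set gave 2.1 in brain against 7484.1 in kidney, a brain signal at least 40.2-fold lower. The brain signal stood at percentile 1.53 of the 430A array and the kidney signal at percentile 99.8 of the 430 2.0 array. S100g therefore had one of the lowest readings of its brain array and one of the highest of the kidney array.

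Calb1, its larger namesake, was bright in both tissues. The brightest of its 4 probe sets read 1747.4 in brain and 4689.5 in kidney, at percentiles 98.0 in brain and 99.1 in kidney, which after centring is 1.498-fold lower in brain. A second 430A probe set gave 90.8 in brain against 287.6 in kidney, a brain signal at least 1.54-fold lower.

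Both 430A probe sets of Calb1 thus leaned towards kidney without reaching 2-fold. The 430B probe sets pointed apart: one read 239.8 in brain and 189.1 in kidney (3.41-fold lower in brain after centring), and the other gave 227.8 in brain against 4.3 in kidney, a fold of at least 1.89 towards brain. The first of these changed direction with the scaling of 430B: it was 1.27-fold higher in brain as deposited and 1.11-fold lower with 430B at the 430A scale. Calb1 as a gene was 2.68-fold lower in brain on the deposited signals and 1.06-fold lower with quantile normalization.

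Pvalb, a calcium buffer of interneurons, Purkinje cells and fast muscle, was likewise present in both tissues, at 1397.1 in brain and 1221.2 in kidney. These are percentiles 97.3 in brain and 94.6 in kidney. After centring it was 2.05-fold higher in brain, just past the fold used for a call, but 1.14-fold higher on the deposited signals. The call was thus lost on the deposited signals, while with quantile normalization it was kept. Of 8 genes of fast skeletal muscle, which also makes Pvalb, 7 were below the floor in both tissues. Their signals ran to 435.7 in brain, the value of the creatine kinase Ckm, and to 38.9 in kidney, with sums of 666.3 in brain and 159.1 in kidney and none at 0. The part of muscle RNA in the Pvalb reading was not tested.

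Calb2, by contrast, was above the floor in brain and not in kidney, at 1089.5 in brain against 3.6 in kidney, which is at least 10.5-fold higher in brain. Among markers of inhibitory neurons, in which Calb1, Calb2 and Pvalb mark separate subsets, 7 of the 8 measured were called towards brain and none towards kidney. Their signals ran from 110.8 to 1022.9 in brain and from 13.4 to 121.6 in kidney. All 3 measured markers of Purkinje cells were higher in brain too, with the cell type's own Pcp2 at 934.2 in brain and 5 in kidney.

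The neuronal calcium sensors Hpca and Vsnl1 were far higher in brain on each of their probe sets. The 2 probe sets of Hpca, a sensor named for the hippocampus, read 2002 and 777 in brain and 12.2 and 7.2 in kidney. Their folds were at least 19.3 and at least 7.47 higher in brain.

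The 2 probe sets of Vsnl1, a sensor of many forebrain neurons, read 2023.4 and 1737.1 in brain and 23.9 and 9.6 in kidney. Their folds were at least 19.5 and at least 16.7 higher in brain. Over the 4 probe sets of both genes, percentiles ran from 93.4 to 98.5 in brain and from 19.1 to 39.9 in kidney.

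Ncald, the third sensor, was expressed on both arrays and its probe sets differed. One 430A probe set gave 1205.7 in brain and 529.9 in kidney, 4.08-fold higher in brain after centring. The other, designed on the same target sequence, read 669.4 in brain and 626.9 in kidney, 1.91-fold higher in brain. The 430B probe set gave 139.2 in brain against 24 in kidney, a fold of at least 1.15 towards brain.

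Both 430A probe sets of Ncald pointed to brain, but after centring 1 of the 3 probe sets passed 2-fold. The 430B one had a log2 ratio of 0.21 after centring and -0.015 with quantile normalization. The middle log2 ratio of the 3 was 0.94, short of a call. Unlike Hpca and Vsnl1, Ncald had kidney signals at percentiles 87.8 and 89.5 on its 430A probe sets.

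Pcp4, first described in Purkinje cells and made in several other neurons, gave 1906.4 in brain against 115.7 in kidney. Towards brain that is a fold of at least 18.3 after centring and of at least 15.7 against the floor on the deposited signals, where the plain ratio is 16.5. Its kidney signal, although below the floor, stood at percentile 66.7 of its array. The gene whose pair of floored signals lay nearest to that of Pcp4 was Nrgn, a calmodulin binder that also has an IQ motif, at 1896.5 in brain and 52.1 in kidney.

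S100b, the astrocyte member of the S100 family, read 1060.4 and 440.6 in brain and 29.3 and 21.9 in kidney on its 2 probe sets. Their folds were at least 10.2 and at least 4.24 higher in brain. Of 7 astrocyte markers 4 were higher in brain and Aldh1l1 was higher in kidney, with signals from 300 to 8880.8 in brain and from 25.8 to 1248.8 in kidney. Oligodendrocyte genes, from cells that can also make S100b, were higher in brain for 5 of 5, at 508.6 to 6184 in brain and 1 to 349.1 in kidney.

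S100b is made in fat cells as well. Fabp4 and Adipoq, the 2 of 4 adipocyte markers measured, were higher in kidney, at 24 and 4.8 in brain and 4989.2 and 616 in kidney. The S100b readings in kidney were under the floor, and the part of fat cell RNA in them was not tested.

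The brain RNA also held pituitary transcripts. All 4 pituitary hormone genes of the list were higher in brain, from 612 to 5129.1, against 1.6 to 52.7 in kidney, with sums of 13301.8 in brain and 104.7 in kidney and none at 0, and their part in the brain readings of these genes was not tested.

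**Figure D2:**
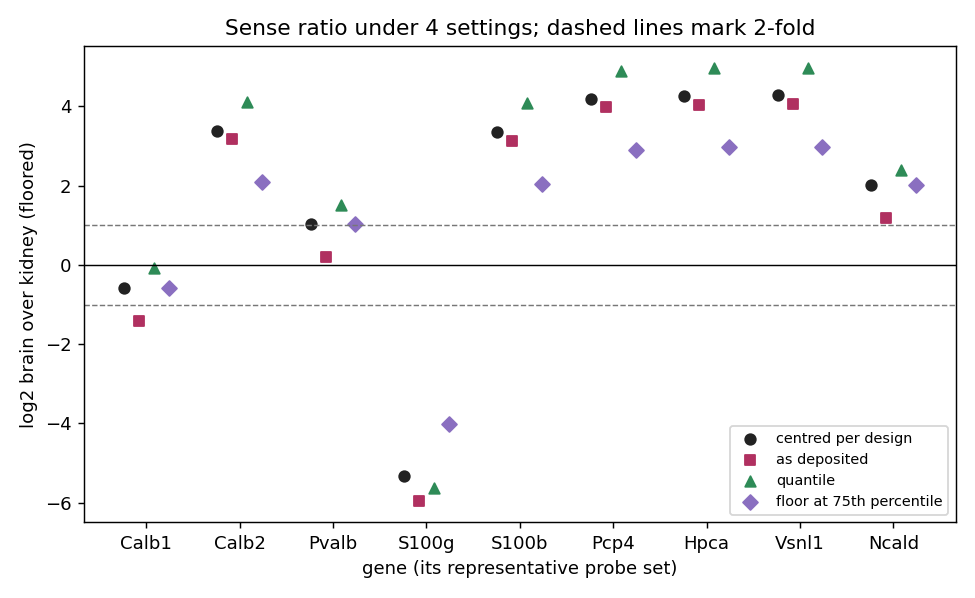
Log2 ratio of brain over kidney for the representative probe set of each gene, with signals under the floor raised to it, under 4 settings; dashed lines mark 2-fold. Calb2, S100b, Pcp4, Hpca, Vsnl1 and Ncald stay above the upper line and S100g below the lower one, while Pvalb crosses the upper and Calb1 the lower line on the deposited signals.

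Over the scalings and floors tried, Calb2, S100b, Pcp4, Hpca and Vsnl1 stayed 2-fold or more higher in brain and S100g in kidney. Ncald also stayed so in brain by its representative probe set, but not by the middle ratio over its probe sets. The log2 ratio of none of the 9 genes, each by its representative probe set, changed sign over these settings. Without any floor the log2 ratio was 9.08 for Calb2, 8.20 for Hpca, 7.25 for Vsnl1 and -10.96 for S100g, sizes that rest on kidney or brain signals near the bottom of the array.

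For each of the 9, the gene with the nearest pair of brain and kidney signals was found after signals under the floor had been raised to it, a likeness over 2 arrays only. For S100g, Calb2, S100b, Pcp4, Hpca and Vsnl1 the darker tissue was at the floor, so the likeness covers the brighter tissue, and the deposited signals of the darker one can differ widely. Nearest to S100g was Umod, a protein of urine, at 17 in brain and 7093.2 in kidney. Nearest to Hpca was the imprinted gene Nap1l5 (2002 in brain and 28.3 in kidney), to Vsnl1 the sodium pump subunit Atp1b2 (2042.8 in brain and 117 in kidney), to Calb2 Fgf13 (1086.9 in brain and 88 in kidney) and to S100b Spock1 (1064.6 in brain and 16.8 in kidney). For the genes read in both tissues they were Pabpn1 for Calb1 (1760.8 in brain and 4651 in kidney), Rrp1 for Pvalb (1379 in brain and 1204.3 in kidney) and 1110008P14Rik for Ncald (1262.7 in brain and 523.4 in kidney). With the floor in place the distances lay between 0 and 0.077 on the log2 scale. Between 12 genes (S100g) and 121 genes (S100b) lay within 0.5 of each, so the nearest is 1 of many.

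The next comparison placed the 9 genes beside 7 lists of related genes, 79 genes in all. Of these, 69 were measured on the sense arrays and 54 were above the floor, with 14 higher in brain, 22 in kidney and 18 within 2-fold, and a median log2 ratio of -0.18. For comparison with this and each list below, 18.1% of all genes above the floor were called higher in brain and 26.6% in kidney. The close relatives of Hpca, Vsnl1 and Ncald went towards brain. Of 10 other genes of the neuronal calcium sensor family, 7 were above the floor and all 7 were higher in brain (median 1.65), as were 5 on the deposited signals. Hpcal4, a hippocalcin-like sensor, read 4383.9 in brain and 48.7 in kidney, 20.8-fold higher in brain. Kcnip4, a partner of Kv4 potassium channels, gave 969.5 in brain against 2.1 in kidney, a fold of at least 8.04 towards brain. On 430B, Ncs1 was 3.35-fold and Kcnip2 3.13-fold higher in brain, and with 430B at the 430A scale their log2 ratios were 3.37 for Ncs1 and 3.27 for Kcnip2. On 430A both Ncs1 probe sets and 1 of Kcnip2 were below the floor in both tissues, and the other Kcnip2 probe set was at least 1.58-fold higher in brain. Recoverin (Rcvrn), Guca1a and Guca1b, sensors of the retina, were below the floor in both tissues.

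The small calmodulin binders with an IQ motif, the kind of protein Pcp4 is, were higher in brain for 3 of 3 (median 2.86). Nrgn was at least 18.2-fold, the growth cone protein Gap43 at least 7.24-fold and Pcp4l1 at least 3.49-fold higher, although a floor at the 75th percentile took Pcp4l1 below 2-fold. Calmodulin-like and CaBP genes were divided. The neuronal Cabp7 (885 in brain and 8.3 in kidney) and Caln1 (544 in brain and 16.5 in kidney) were higher in brain, and Calml4 was at least 22.2-fold lower there (57.2 in brain and 4137.2 in kidney). A second Cabp7 probe set was below the floor in both tissues.

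The other S100 genes with a call lay towards kidney, as S100g did. Of 14 in the list, 8 were above the floor, 4 were higher in kidney and none in brain (median -0.82). S100a6 was 9.61-fold lower in brain (105.5 in brain and 1816.2 in kidney), S100a10, the partner of annexin A2, 8.68-fold (116.3 in brain and 1809 in kidney) and S100a1 2.64-fold (545.4 in brain and 2581 in kidney). Another 430A probe set of S100a10 was 18.5-fold lower in brain. Its 430B probe set was within 2-fold after centring, at 140.2 in brain and 64.3 in kidney. S100a16 was 5.04-fold lower, but 1.43-fold on another probe set and within 2-fold with 430B at the 430A scale.

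The other cytosolic EF-hand proteins gave 2 of 13 higher in brain and 5 in kidney (median -0.18), and 8 in kidney on the deposited signals. Over all genes above the floor the centred shares were 18.1% in brain and 26.6% in kidney. Necab2, a neuronal EF-hand protein, was at least 6.38-fold higher in brain. Cetn2, a centriole protein, was 6.18-fold lower in brain on a probe set marked for possible cross-hybridisation and 2.13-fold lower on its unmarked one. Cib1 was 5.87-fold lower in brain, and its second probe set was below the floor in both tissues. The probe sets of Efhd2 disagreed, with 510.6 in brain and 1597.1 in kidney on 430B (13.5-fold lower in brain) and 945.6 in brain and 373.7 in kidney on 430A (4.53-fold higher in brain). The size of the 430B fold depended on the scaling. Its log2 ratio was -3.76 after centring, -2.13 with 430B at the 430A scale and -1.65 on the deposited signals. Calcium-binding proteins of the secretory pathway gave 5 of 9 calls towards kidney and 0 towards brain (median -1.04), led by Rcn1 (4.17-fold lower in brain), Nucb1 (3.59-fold), Calu (3.14-fold) and Sdf4 (2.42-fold). For Rcn1, Calu and Sdf4 a 430B probe set was within 2-fold. Taking the middle ratio over each gene's probe sets instead left 2 of the 9 past 2-fold.

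Calcium reabsorption in the tubule is the process in which S100g and Calb1 take part. That list, which also holds genes of its control by hormones, gave 7 calls towards kidney and 0 towards brain among 10 above the floor (median -1.57). On the deposited signals 2 calls were towards brain and 6 towards kidney, and with 430B at the 430A scale 1 was towards brain and 6 towards kidney. Pth1r, the receptor of parathyroid hormone, gave 20.3 in brain against 2974.8 in kidney, a brain signal at least 15.96-fold lower. Klotho (Kl), a cofactor of FGF23 signalling, gave 88.1 in brain against 2295.5 in kidney, a brain signal at least 12.3-fold lower. Cyp24a1, which breaks down vitamin D, was at least 8.18-fold lower in brain, and Vdr, the vitamin D receptor that induces S100g, at least 4.02-fold, although a floor at the 75th percentile took Vdr below 2-fold. A second probe set each of Cyp24a1 and Kl was below the floor in both tissues. The sodium-calcium exchanger Slc8a1, read on 430B, was 2.11-fold lower in brain after centring but 2.05-fold higher in brain on the deposited signals. The calcium pump gene Atp2b1, also on 430B, gave 2491.2 in brain and 729.5 in kidney, 1.27-fold lower in brain after centring and 3.41-fold higher on the deposited signals. The calcium channel gene Trpv6 was below the floor in both tissues. Distal tubule markers gave 2 of 4 higher in kidney and none in brain, with the thiazide-sensitive salt transporter Slc12a3 at 15.2 in brain and 1386 in kidney. The other two, both on 430B, were within 2-fold after centring but higher in brain on the deposited signals, Klk1 4.69-fold (712 in brain and 151.8 in kidney) and Trpm6 3.29-fold (333.1 in brain and 101.2 in kidney).

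**Figure D3:**
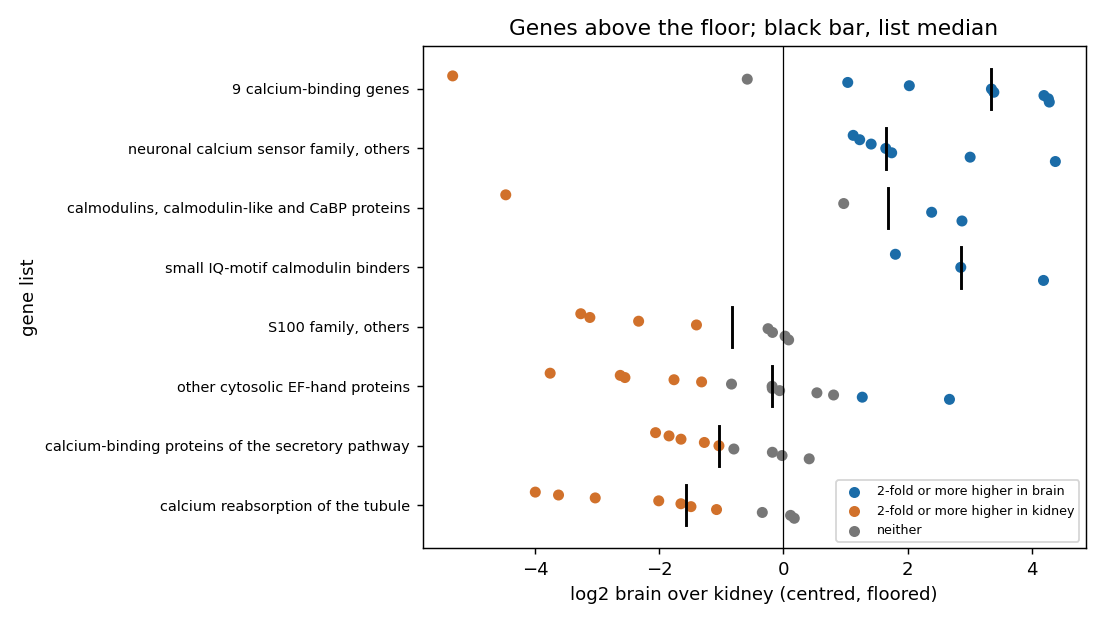
Log2 ratio of brain over kidney of the sense genes above the floor in the 9 calcium-binding protein genes and in 7 lists of related genes, each point 1 gene and each black bar a list median. The neuronal calcium sensors and IQ-motif genes lie to the right (medians 1.65 and 2.86) and the tubule calcium genes to the left (median -1.57).

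The reverse probe sets were then compared between tissues, for Pcp4, Calb1 and S100g. Signals were used as deposited, with a floor of 63.5 on U74A and 98.5 on U74B. Of the 3 genes, Pcp4 alone was called, towards brain. Of all 1009 genes with a reverse probe set above the floor, 19.8% were called higher in brain and 4.66% in kidney, and 9.45% in brain and 8.25% in kidney once each pair was centred on its median.

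The reverse probe sets of Pcp4 read 209.5 and 104.6 in brain and 13.2 and 7.2 in kidney. The first was at least 3.30-fold and the second at least 1.65-fold higher in brain, and both were high in the same tissue as the sense transcript. With the floor at the 90th percentile neither passed 2-fold. Pcp4l1, its relative, read 259.7 in brain and 76.6 in kidney on its representative reverse probe set, which is marked for possible cross-hybridisation. That is 3.39-fold higher in brain. The ratio passed 2-fold after centring but neither after quantile normalization nor with the floor at the 90th percentile. The middle log2 ratio over the reverse probe sets of Pcp4l1 was 1.30, against 1.76 on the representative one.

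Calb1 had 1 reverse probe set, which read 3.8 in brain and 168.9 in kidney. That is at least 1.71-fold lower in brain against the floor, short of a call. Without a floor the deposited signals were 44.4-fold apart.

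S100g had 1 reverse probe set, which read 175.8 in brain and 222 in kidney, 1.26-fold lower in brain and above the floor in both tissues. Its log2 ratio was -1.07 after median-centring and -1.30 after quantile normalization, past 2-fold in both.

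Set beside the sense readings, the 3 genes gave 3 patterns. Ranks within each array were used, which still carry differences in binding between probes. Pcp4 ranked high on both strands in brain (reverse percentiles 94.4 and 85.4, sense 98.3) and lower on both in kidney (reverse 41.8 and 28.1, sense 66.7). Calb1 had a high sense rank in both tissues on its brightest probe set (98.0 in brain and 99.1 in kidney). Its other sense probe sets stood at 45.9 to 72.0 in brain and 13.8 to 80.1 in kidney. The reverse reading of Calb1 stood at percentile 7.23 in brain and 89.2 in kidney. S100g had a reverse percentile of 92.6 in brain and 98.0 in kidney, whereas its sense percentile was 1.53 in brain and 99.8 in kidney.

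The strands of S100g thus parted in brain, where the sense probe set was near the bottom of the array and the reverse probe set stood at percentile 92.6 of its own. In RefSeq, S100g overlaps the gene Ctps2, a CTP synthase, and neither Calb1 nor Pcp4 overlaps another gene. The representative sense probe set of Ctps2, on 430A, read 145.4 in brain and 417.5 in kidney. A 430B probe set of Ctps2 read 266.8 in brain and 63.2 in kidney as deposited, which after centring is 1.02-fold lower in brain. A further 430A probe set was below the floor in both tissues. The reverse probe set of Ctps2 was below the floor, at 3.2 in brain and 10.8 in kidney. The part of Ctps2 transcripts in the reverse S100g signal was not tested.

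**Figure D4:**
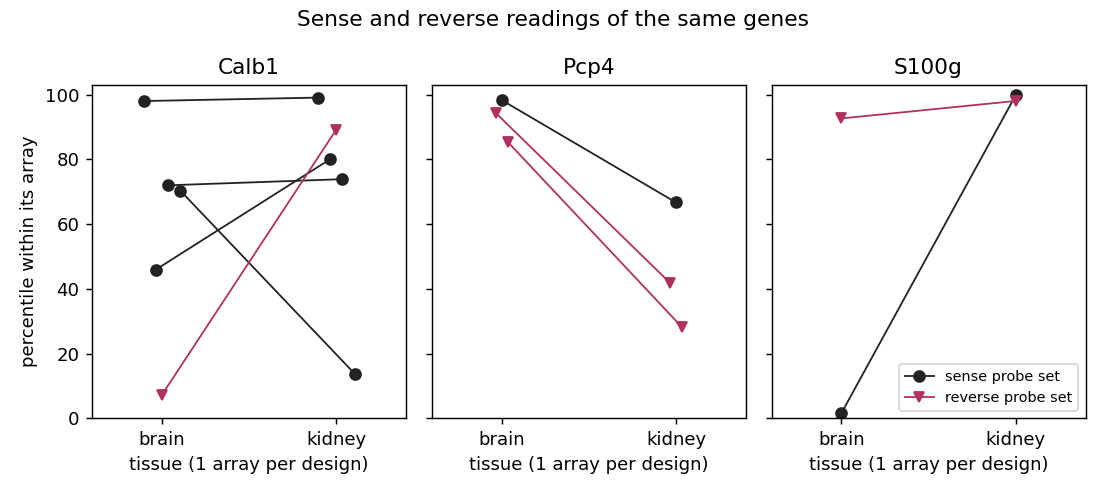
Percentile of each sense (circle) and reverse (triangle) probe set within its array, in brain and in kidney, for Calb1, Pcp4 and S100g. Strands fall together for Pcp4, while the reverse S100g line is nearly flat (92.6 in brain and 98.0 in kidney) against a steep sense line (1.53 in brain and 99.8 in kidney).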

How the data were processed

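Intensity values are the authors' MAS5 signals as deposited, on a linear scale, a method named in the submitters' processing notes. The authors used Affymetrix's mask to keep only reverse probe sets from the U74 arrays, per the labels. The 2% trimmed mean of the 3 sense arrays lay between 198.9 and 199.3. No detection calls were in the files used here, so a floor stood in for them. Gene names come from the platform annotation at GEO, brought to RefSeq symbols (GRCm38.p6) by gene identifier, and all 21 probe sets carried their symbol before the update. No genome build is given for the arrays in the sources used here. For each sense pair the median log2 ratio of its bright probe sets (over the median in both tissues) was subtracted, -0.84 for 430A and 2.11 for 430B. As the floor of a pair, the higher of its medians (sense) or 75th percentiles (antisense) was taken. The 100 probe sets on both brain arrays were used once. The log2 ratios of 98 bright ones, 430A over 430B, had a median of -1.33 and an SD of 0.25. The shifts subtracted for 430A and 430B lay further apart than that median, and some 430B calls changed with the scaling, as given above. The text names the 9 genes, the nearest gene to each, at most 4 called genes of each related list, and markers; Slc8a1, Atp2b1, Trpv6, Ctps2 and the retinal sensors were chosen after their values were seen. The genes and lists were chosen with earlier results of these data known. The calling step was tested on simulated data. Alternatives were other scalings, floors, folds and probe set rules (python 3.11.15, pandas 2.3.3).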

Additional observations from a re-analysis of the deposited data

How the results depend on the processing

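The number of the 9 genes higher in brain on the sense arrays stayed within 1.5 times of 7 under each alternative. The number higher in kidney was 2 on the deposited signals, with Calb1 joining S100g. Among the reverse probe sets, S100g was the 1 gene higher in kidney with median-centring and with quantile normalization, and Calb1 the 1 gene higher in kidney without a floor; with the floor at the 90th percentile 0 genes were higher in brain. Of the 79 related genes, 27 were higher in brain without a floor, against 14. By representative probe set, no ratio of the 9 genes that passed 2-fold changed sign. The 430B probe set of Calb1 at -1.77 was at 0.34 on the deposited signals. Of the ratios, 28 of 63 sense and 6 of 14 reverse ones moved by more than the repeat SD of 0.25. That SD comes from 98 bright probe sets shared by the brain sense arrays, none of them of the 9 genes. It covers no kidney array and no reverse probe set, so it is a yardstick and not their error. Over all genes, 430B at the 430A scale moved the median sense log2 ratio to 0.29 and gave 3329 genes higher in brain and 1957 in kidney, against 2344 in brain and 3438 in kidney. The floor at the 75th percentile gave 1089 in brain and 2468 in kidney, no floor 6076 in brain and 4746 in kidney, and 3-fold 1215 in brain and 2049 in kidney. Reverse genes gave 200 calls in brain and 47 in kidney, but 102 in brain and 89 in kidney after centring, 77 in brain and 108 in kidney after quantile normalization, 67 in brain and 15 in kidney with the higher floor, 820 in brain and 591 in kidney without a floor, and 57 in brain and 19 in kidney at 3-fold. No paired analysis was possible because each group had 1 array. Without detection calls, signals under the floor cannot be told from background.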
